A study of Mus musculus with 3 samples.

Results

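The nuclear genes of oxidative phosphorylation were described in activated regulatory T cells. They were chosen by name: protein-coding genes whose symbol begins with Nduf, Uqcr, Atp5, Cox4, Cox5, Cox6, Cox7 or Cox8, together with Sdha, Sdhb, Sdhc, Sdhd, Cyc1 and Cycs, and without entries named as pseudogenes. The rule gave 96 genes of 22028 protein-coding genes and 55536 mouse genes in the main table. They comprise 38 complex I entries, 4 of complex II, 9 of complex III, Cycs for cytochrome c, 18 of complex IV, 18 of complex V and 8 complex I assembly factors. Ndufa4 stands under complex I here because of its symbol, although its protein is now placed with complex IV.

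Oxidative phosphorylation makes ATP in the inner mitochondrial membrane. Complexes I and II feed electrons from NADH and succinate into the chain, complex III passes them to cytochrome c, complex IV passes them to oxygen, and complex V, the ATP synthase, uses the proton gradient that results. Complex II is wholly nuclear-encoded, whereas the other complexes also hold subunits encoded in the mitochondrial genome. Regulatory T cells, which restrain immune responses and depend on the transcription factor Foxp3, are known for their reliance on mitochondrial respiration.

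The source was 1 male mouse aged 4 months, whose activated regulatory T cells gave polyA-selected RNA for sequencing. The strain carried Foxp3CreERT2, a tamoxifen-inducible Cre recombinase at Foxp3, and Rosa26YFP, a fluorescent reporter, and the labels trace the cells to bone marrow hematopoietic cells. All 3 libraries are labelled as technical replicates of 1 biological replicate and make up a single group without a control, so the values below are levels and their spread over libraries, and no conditions are compared. The sources used here do not say how the cells were sorted or activated. P-values below measure only the spread between these libraries, which may be technical, and in bulk RNA fewer cells of a type and less RNA per cell cannot be told apart.

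Replicates 1, 2 and 3 held 10981924, 9700630 and 6667391 expected counts (estimated fragments) assigned to genes. The 7 genes of the regulatory T cell list, Foxp3, Il2ra, Ikzf2, Ctla4, Tnfrsf18 and the general T cell genes Cd4 and Cd3e, were all detected and summed to 2965, 3323 and 2589 TPM (a level scaled by transcript length and library size). They did not move together: Foxp3 was at 29.5, 28.7 and 49.8 TPM and Ctla4 at 190, 250 and 612 TPM, both highest in replicate 3, where Cd3e was lowest, at 1170, 1323 and 811 TPM. Markers of other cells differed between libraries. The 5 erythroid markers summed to 795, 5.30 and 23.4 TPM, the 3 plasma cell markers to 96.5, 48.0 and 150 TPM, the 4 B cell markers to 40.7, 16.6 and 28.3 TPM, and the 4 myeloid markers to 23.7, 8.68 and 21.6 TPM. The libraries differed from each other beyond sampling noise in all 3 pairs, with a chi-square per degree of freedom of 11.4, 30.7 and 30.3 for replicates 1 and 2, 1 and 3, and 2 and 3, so none was counted as a repeat deposit of another.

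The members were expressed almost throughout. With detection set at 1 TPM or more in all 3 libraries, 88 of the 96 members (91.7%) were detected, against 9900 of 21932 other protein-coding genes (45.1%). The 88 had a median mean level of 200.6 TPM, against 20.6 TPM for the 9900 others, and 72 of the 88 (81.8%) reached 100 TPM, against 1277 of the 9900 (12.9%). Of all genes in the table, the 1000 highest included 61 members. Members were also short, with a median transcript length of 691 bases against 2287 bases for the other detected genes, and TPM of short genes depends strongly on the estimated effective length. In fragments, which are not corrected for length, members took 0.996%, 0.964% and 1.03% of the 3 libraries (95% Wilson intervals 0.990 to 1.00%, 0.958 to 0.970% and 1.02 to 1.03%, for counting error only).

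The median of log2(TPM + 1) over the 96 members was 7.56, 7.45 and 7.54 in replicates 1, 2 and 3, or 7.52 ± 0.06 (SD, n = 3). For the 16690 other protein-coding genes above 0 in any library it was 2.57 ± 0.06. Members also differed less between libraries than other genes. The median coefficient of variation over libraries, the SD as a percentage of the mean, was 11% for detected members and 18.2% for the other detected genes. For the 740 other genes whose mean lay between the lower and upper quartile of the members, 112 and 319 TPM, it was 13.9%.

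**Figure D1:**
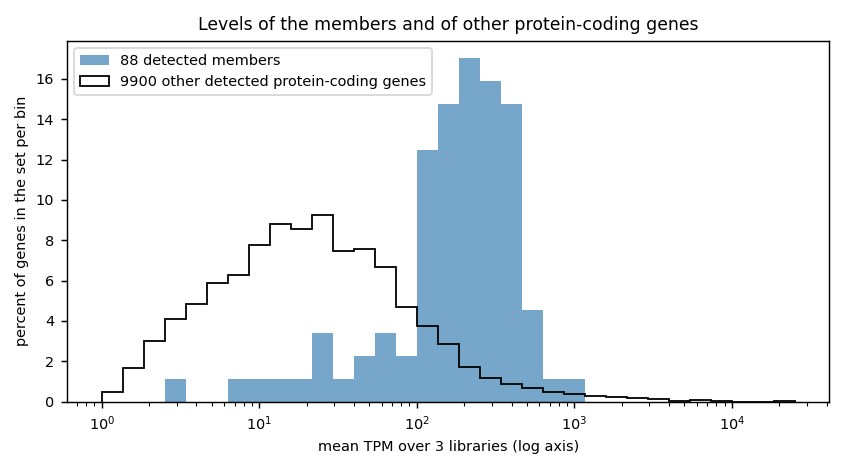
Mean TPM over the 3 libraries (log axis) against the percent of genes in each set per bin, for the 88 detected members (filled) and the 9900 other detected protein-coding genes (line). The members have a median of 200.6 TPM and the other genes one of 20.6 TPM.

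Complex V had the highest median level and the assembly factors the lowest. The median log2(TPM + 1), with all members of each complex counted, was 8.45 ± 0.06 for complex V, 7.91 ± 0.03 for complex IV, 7.89 ± 0.10 for complex III, 7.57 ± 0.09 for complex II, 7.44 ± 0.03 for complex I and 4.62 ± 0.12 for the assembly factors (SD, n = 3 each). Counted so, complexes III and IV lay within their spread of each other, and complexes I and II differed by little more than the spread of complex II. Of the 18 complex IV members 12 were detected. With detected members only, complex IV was at 8.25 ± 0.12, between complex III at 7.89 ± 0.10 and complex V at 8.47 ± 0.05. At 100 TPM or more stood 33 of 37 detected complex I genes, 3 of 4 of complex II, 9 of 9 of complex III, 11 of 12 of complex IV, 16 of 17 of complex V and 0 of 8 assembly factors.

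**Figure D2:**
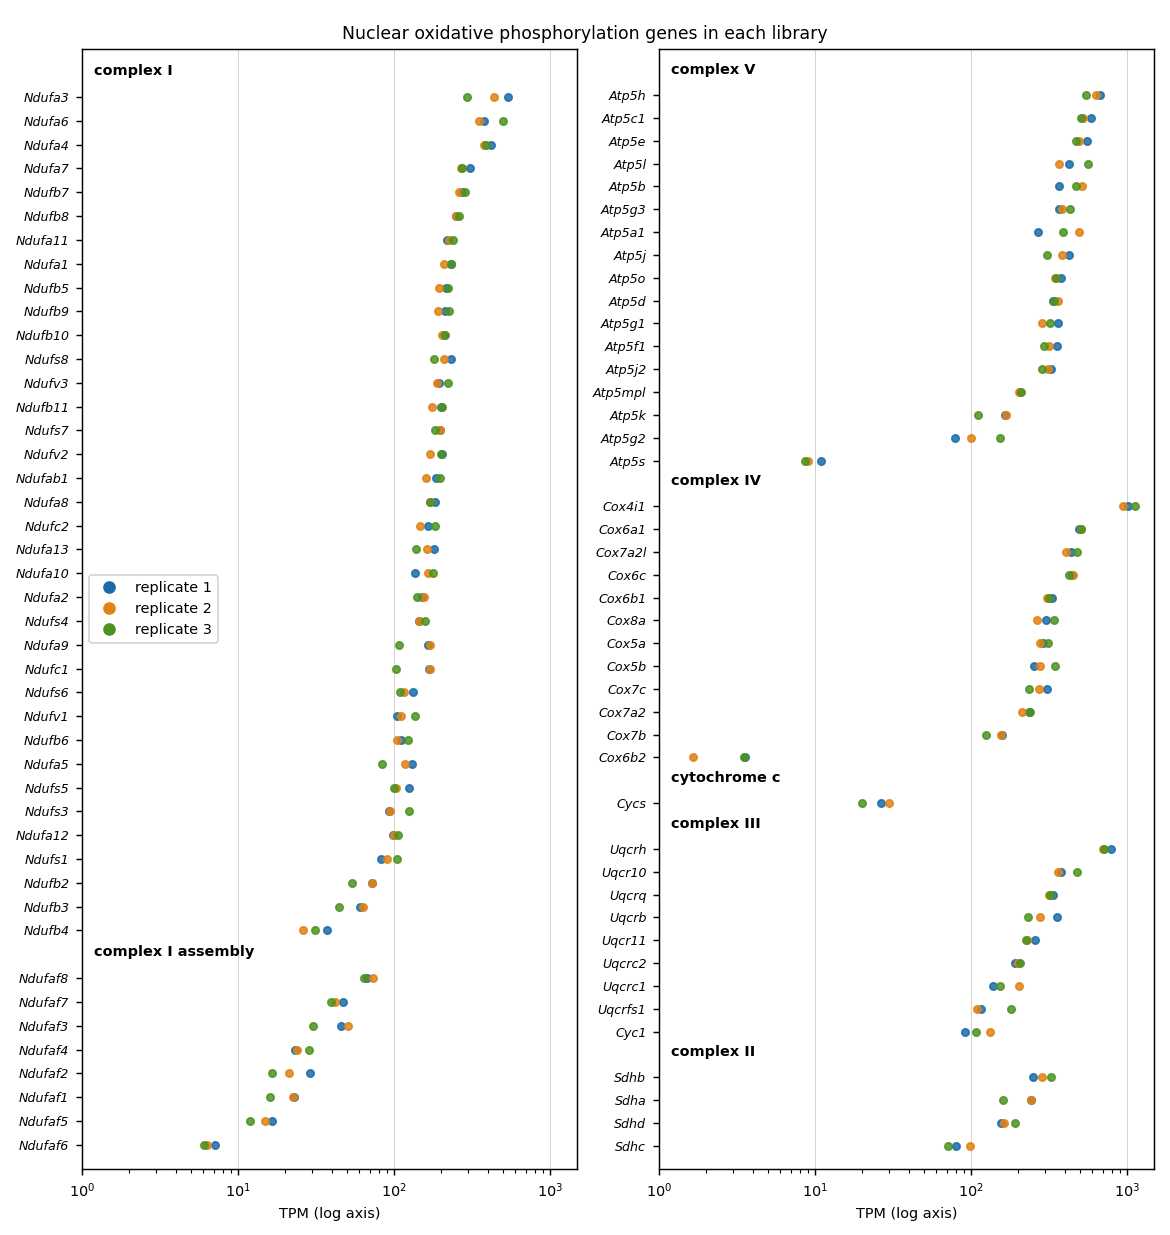
TPM (log axis) of 87 of the 88 detected members in replicates 1, 2 and 3, grouped by complex and sorted by their mean. Most subunits sit between 100 and 1000 TPM. By their mean, the 8 assembly factors, Cycs, Cox6b2, Atp5s, Sdhc, Ndufs1, Ndufb2, Ndufb3 and Ndufb4 lie lower.

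In complex I, the entry point for electrons from NADH, the highest genes, Ndufa3 and Ndufa6, encode accessory subunits. Ndufa3 was at 537, 438 and 293 TPM in replicates 1, 2 and 3, with 873, 652 and 379 fragments, and was lowest in replicate 3. Ndufa6 was at 381, 354 and 504 TPM, highest in replicate 3. Ndufa4, listed under complex I only because of its symbol, was at 421, 378 and 392 TPM, and its libraries stood close together.

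Core subunits of complex I carry the flavin, the iron-sulfur clusters and the quinone site. Among them, Ndufs8 was at 234, 209.8 and 181 TPM and Ndufs1 at 82.3, 90.8 and 105 TPM. Both lay below every library of Ndufa3 and Ndufa6. The lowest complex I genes were Ndufb4, at 37.1, 26.2 and 31.04 TPM, and Ndufb3, at 60.8, 63.0 and 44.7 TPM, both accessory subunits of the membrane arm. Ndufb4 shares sequence with another gene, as described further on.

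The 8 assembly factors, which build complex I and are not part of it, were all detected. Ndufaf8 was highest at 67.4, 73.0 and 64.6 TPM, followed by Ndufaf7, a methyltransferase, at 47.6, 42.0 and 39.7 TPM, and Ndufaf3 at 45.7, 50.9 and 30.3 TPM. Ndufaf5 and Ndufaf6 were lowest, at 16.6, 14.9 and 11.97 TPM and at 7.14, 6.35 and 6.09 TPM. Assembly factors of the chain outside the naming rule stood at a like level. Of 39 such genes 38 were detected, at a median log2(TPM + 1) of 4.75 ± 0.19 (SD, n = 3), from Cox17, a copper chaperone for complex IV, at 199, 201 and 129 TPM down to Lyrm7, a complex III assembly factor, at 1.91, 3.22 and 1.86 TPM. Pet117, at 0.550, 1.16 and 1.11 TPM, was the one below the threshold.

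In complex II, which also serves the citric acid cycle, Sdhb, the iron-sulfur subunit, was highest at 250 TPM in replicate 1, 287 in replicate 2 and 324 in replicate 3. Sdha, the flavoprotein, was at 241, 242 and 161 TPM, and Sdhd, a membrane anchor, at 156, 163 and 191 TPM. The other anchor gene, Sdhc, was lowest at 80.0, 98.1 and 70.8 TPM, below every library of the other 3 genes. Sdhb and Sdhd were highest in replicate 3, where Sdha and Sdhc were lowest.

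In complex III, Uqcrh, the hinge subunit that helps cytochrome c dock, stood above all other members of the complex, at 788, 702 and 711 TPM. Uqcr10 was at 377, 362 and 478 TPM and Uqcrq at 335, 318 and 322 TPM, both small supernumerary subunits. The catalytic genes were lowest: Uqcrfs1, which encodes the Rieske iron-sulfur protein, was at 115, 110 and 181 TPM, and Cyc1, which encodes cytochrome c1, at 92.0, 133 and 108 TPM. Cycs, the soluble electron carrier that also triggers apoptosis once released, was listed at only 26.5, 29.9 and 20.1 TPM.

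In complex IV, Cox4i1, the ubiquitous form of the largest nuclear subunit, was the highest of all 96 members. It lies on chromosome 8 from 120668222 to 120674207 (mm10, + strand) and was at 1014, 940 and 1119 TPM, rank 152 of all genes by mean TPM. Cox6a1 was at 490, 507 and 508 TPM with libraries close together, and Cox7a2l, whose product joins complexes III and IV into supercomplexes, was at 439, 408 and 477 TPM. Cox7b was the lowest of the ubiquitous subunits in the main table, at 159, 155 and 124 TPM. Cox6b2, known as a testis form, was at 3.56, 1.65 and 3.51 TPM. In a second deposited quantification Cox7b stood above Cox5a. There Cox7b-203, a transcript at a mean of 94.5 TPM, made up 40.2% of Cox7b, and Cox5a-201, at 189 TPM, 99.1% of Cox5a.

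In complex V, Atp5h, which encodes the d subunit of the peripheral stalk, was highest in the main table at 671, 638 and 547 TPM. The catalytic head of the synthase holds alpha and beta subunits in excess over one gamma, delta and epsilon subunit each. The transcripts did not follow that order: Atp5c1 (gamma) was at 585, 526 and 505 TPM, Atp5e (epsilon) at 553, 494 and 471, Atp5b (beta) at 368, 514 and 471, Atp5a1 (alpha) at 269, 496 and 387, and Atp5d (delta) at 336, 362 and 338 TPM. Lowest were Atp5g2, one of the genes for the c ring, at 78.6, 101 and 154 TPM, and Atp5s, coupling factor B, at 10.98, 9.02 and 8.61 TPM. A second entry named Atp5o was listed at 0 in all libraries. The main Atp5o gene, for the subunit that confers oligomycin sensitivity, was at 376, 348 and 349 TPM. Atp5h shares sequence with other genes, as described further on, and in a second deposited quantification it stood below Atp5e. There Atp5e-201, a transcript of Atp5e, had a mean of 494 TPM. Atp5h-208, at 214 TPM, made up 50.5% of Atp5h.

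Where a subunit has a ubiquitous and a tissue-restricted form, the ubiquitous form held nearly all of the transcripts. The restricted forms Cox4i2, Cox6a2, Cox6b2, Cox7a1, Cox7b2, Cox8b, Cox8c and Ndufa4l2 made up 0.126%, 0.137% and 0.141% of the TPM of their sets in replicates 1, 2 and 3. Of the 8 members not detected, 7 are such forms, and Cox6b2 was the only restricted form that was detected. Cox6a2 and Cox8b, known from heart and skeletal muscle, and Cox7b2 and Ndufa4l2, a hypoxia-induced paralog, had 0 counts in every library of the main table. Against a floor of 3 counts over the group and per base of effective length, Cox6a1 was at least 1840-fold higher than Cox6a2, Cox8a at least 409-fold higher than Cox8b, Cox7b at least 400-fold higher than Cox7b2 and Ndufa4 at least 1720-fold higher than Ndufa4l2.

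Cox4i1 had 5045, 3956 and 3472 counts in replicates 1, 2 and 3, against 1, 1 and 0 for Cox4i2, known from lung, a ratio of 6140 per base with an exact 95% counting interval of 1700 to 50700. Cox8a had 1009, 733 and 708 counts, against 0, 0 and 1 for Cox8c, a testis form, a ratio of 1860 with an interval of 333 to 73300. Cox7a2 had 748, 560 and 484 counts, against 1, 4 and 1 for Cox7a1, the heart and muscle form, a ratio of 183 with an interval of 84.0 to 500. In each pair the lowest count of the ubiquitous form was over 100 times the highest of the other. Cox6b1 had 1229, 951 and 713 counts, against 10, 3 and 8 for Cox6b2, a ratio of 108 with an interval of 70.5 to 175. Of the marker lists for tissues that use such forms, Acta1 and Myl1 of muscle, Ucp1 and Cidea of brown fat and Prm2 and Tnp1 of testis were at 0 TPM in all libraries. Of the 6 muscle markers 2 were detected, Actn2 at 8.16, 5.25 and 1.82 TPM and Tnnt3 at 2.34, 1.67 and 5.34 TPM, and no list covered lung. The 6 muscle markers summed to 10.5, 7.07 and 7.39 TPM, the 3 brown fat markers to 0.34, 1.5 and 0 TPM, and the 4 testis markers to 0.40, 0.68 and 0.82 TPM.

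The c ring of complex V is encoded by Atp5g1, Atp5g2 and Atp5g3, whose mature proteins are the same. Atp5g3 took 45.4%, 49.6% and 47.7% of their summed TPM, Atp5g1 44.9%, 37.3% and 35.5%, and Atp5g2 9.78%, 13.1% and 16.9%. Atp5g2 was the lowest in every library, while Atp5g3 and Atp5g1 nearly met in replicate 1. With M4 counts per coding base (a separate deposited quantification), Atp5g3 took 58.1 ± 2.8%, Atp5g1 26.9 ± 2.2% and Atp5g2 15.0 ± 0.5% (SD, n = 3 each).

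Many members have processed copies elsewhere in the genome, and 7 of them share much sequence with a gene that was itself listed at 50 TPM or more. Stretches of 31 bases (31-mers) of each member's highest coding transcript were looked up in all other genes' transcripts of release M21. Of the 88 detected members, 36 shared no 31-mer with another gene, 24 shared at least 20% and 8 at least 50%. Among the last was Atp5h, which shared 79.4% with Gm10250, a processed pseudogene at a mean of 18.7 TPM. Fragments from such stretches cannot be assigned to one gene from sequence alone, so the levels of these members and of their copies are uncertain.

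Atp5g2, at 78.6, 101 and 154 TPM, shared 100% of its 31-mers with Gm10175, a transcribed processed pseudogene listed at 621, 535 and 604 TPM. The posterior SD in the main table amounted to 19.5% of the counts of Atp5g2, the highest of all detected members. Ndufb4 shared 38.3% with Ndufb4c, listed at 208, 214 and 198 TPM, several times the level of Ndufb4 in each library. Cycs shared 28.6% with Gm10053, annotated as protein-coding and listed at 203, 167 and 142 TPM, again above the member in every library.

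Cox7c, at 306, 272 and 237 TPM, shared 31.8% with Gm12338, at 563, 536 and 423 TPM. Ndufa12, at 98.6, 99.7 and 107 TPM, shared 59.0% with Gm15920, at 212, 199.5 and 194 TPM. Atp5l, at 422, 368 and 566 TPM, shared 54.3% with Gm10221, at 458, 529 and 549 TPM, and was the lower of the pair in replicates 1 and 2 only. Atp5g1 alone of the 7 stood above its copy in each library, at 360, 287 and 322 TPM against 39.2, 105 and 22.8 TPM for Gm10039. Of these copies only Gm10175, Gm10221 and Gm10053 had M4 values, and there M4 counts divided the genes differently. Gm10175 had 98, 70 and 78 M4 counts, Gm10221 had 24, 17 and 22, and Gm10053 had 0, 0 and 1. Scaling M4 counts by coding bases rests on the inference that they cover coding sequence only, which was not tested. So scaled, they put Cycs at 214 ± 14.8 TPM (SD, n = 3). That is 8.38 times its mean in the main table, the largest such ratio among detected members. The median of this ratio was 1.69 over the 88 detected members and 1.31 over 9802 other detected genes. On the scale of M4 counts per coding base Atp5l stood at 246 TPM, against 452 TPM in the main table. Ndufab1, the acyl carrier subunit, which shared 83.9% of its 31-mers, was at 81.3 TPM against 181 TPM in the main table.

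**Figure D3:**
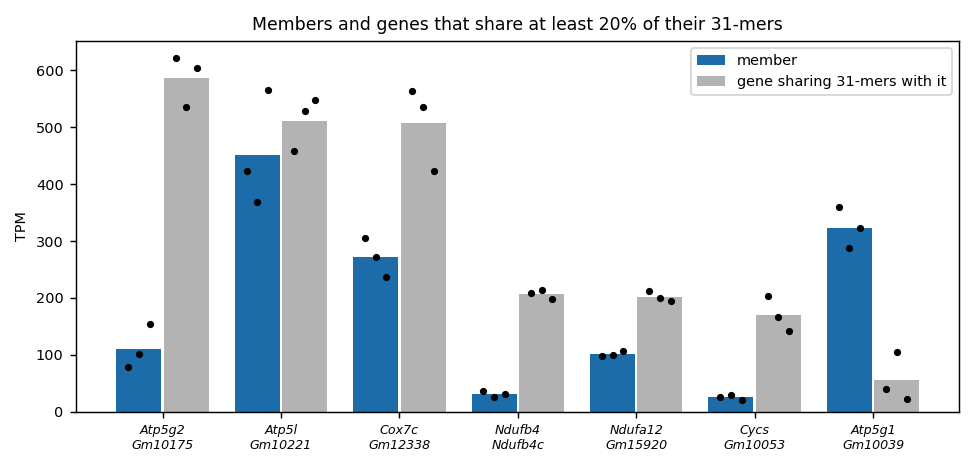
TPM of 7 members (blue) and of the gene that shares at least 20% of their 31-mers and averages at least 50 TPM (grey), as the mean (bar) and each of the 3 libraries (points). In 6 of the 7 pairs the other gene has the higher mean, and Atp5g1 is the exception.

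At the level of transcripts, members were mostly simple. The highest transcript took a median of 88.0% of a member's TPM, against 68.8% for 9892 other detected protein-coding genes. For 14 of the 88 members (15.9%), however, over 50% of the TPM lay in all 3 libraries on transcripts not annotated as protein-coding, against 1150 of the 9892 others (11.6%). In the second transcript table these counts were 11 of 88 (12.5%) and 1554 of 9892 (15.7%), so which set had the larger share turned round.

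Ndufa5, a complex I subunit, had 99.4%, 95.9% and 98.99% of its TPM on such transcripts, mainly on Ndufa5-204, a processed transcript of 453 bases. Ndufa3 had 93.2%, 92.4% and 90.1%, mainly on Ndufa3-204, annotated for nonsense-mediated decay. Atp5j, which encodes coupling factor 6 of the synthase stalk, had 82.4%, 83.0% and 77.9%, mainly on the retained-intron form Atp5j-208. Atp5f1, the b subunit, had 74.0%, 69.3% and 72.4%, mainly on the nonsense-mediated decay form Atp5f1-203, at 257, 213 and 194 TPM against 89.3, 96.9 and 76.4 TPM for the coding Atp5f1-201. At the other end, Cox4i1 had 96.4% of its mean TPM on the coding Cox4i1-201 and Cox7a2l had 99.2% on Cox7a2l-201. The non-coding models named here are 343 bases (Ndufa3-204) to 1311 bases (Atp5f1-203) long, and for a given number of fragments a shorter transcript gets a higher TPM.

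**Figure D4:**
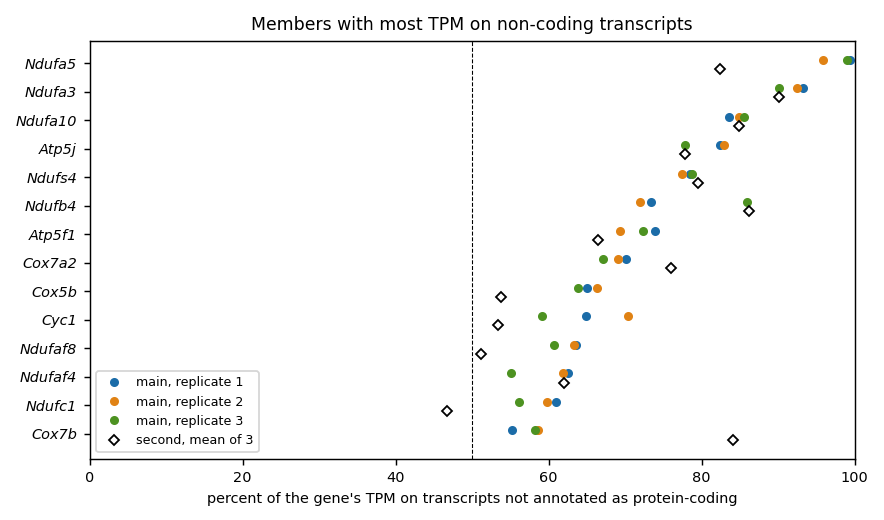
Percent of the gene's TPM on transcripts not annotated as protein-coding, for the 14 members above 50% in all 3 libraries of the main table (circles), with the mean of the second table (diamonds). All but Ndufc1 also have a mean above 50% in the second table.

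By median, mitochondrially encoded subunits were higher than the nuclear ones of the same complex, although in complex I mt-Nd4l, mt-Nd3 and mt-Nd6, at means of 355, 402 and 401.9 TPM, lay below Ndufa3 and Ndufa6. The median TPM of the 7 mitochondrial genes of complex I was 2.85, 2.49 and 2.51 times that of its nuclear members in replicates 1, 2 and 3. For complex III, where mt-Cytb is the mitochondrial gene, the ratio was 13.6, 11.7 and 11.2. For complex IV, with mt-Co1, mt-Co2 and mt-Co3, it was 22.8, 21.5 and 21.7. For complex V, with mt-Atp6 and mt-Atp8, it was 12.7, 10.4 and 15.6. All nuclear members were counted, detected or not. For complex IV their median was 246, 237 and 238.5 TPM in replicates 1, 2 and 3. With detected members only it was 305, 277.5 and 328 TPM, which makes the complex IV ratios lower. The second table gave means of 3.63, 7.59, 14.7 and 23.6 for complexes I, III, IV and V, so the ratio stayed above 1 but the order of complexes IV and V turned round. PolyA selection may recover mitochondrial and nuclear mRNA unequally, which was not tested.

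The genes lie on 19 chromosomes, with 3 on X, and many start next to another gene. Of the 88 detected members, 23 (26.1%) had a protein-coding gene on the other strand whose start lay within 1000 bases upstream, pointing away, against 1146 of 9900 other detected protein-coding genes (11.6%). Ndufa7 starts 10 bases from Rps28, a ribosomal protein gene at 1196, 1130 and 1468 TPM. Sdhd starts 98 bases from Timm8b, a mitochondrial import gene at 100.3, 68.7 and 65.7 TPM, and Atp5c1 starts 83 bases from Kin, a DNA-binding protein gene at 22.0, 24.7 and 21.4 TPM. Not every partner was expressed: Morn5, beside Ndufa8, was at 0 TPM in all libraries.

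Promoter sequence was available for 74 of the 88 detected members, as RefSeq windows from 250 bases before to 50 bases after the start (GRCm38.p6). Nuclear respiratory factor 1, YY1, ETS factors such as GABP and the ERR receptors are known regulators of respiratory chain genes, so exact matches to short cores were counted on both strands. GCGCATGCG (the Nrf1 core) was present for 11 of 74 members (14.9%), against 367 of 7968 other detected protein-coding genes (4.61%) and 2.38% of all 21423 windows. AAGATGGCG (YY1) was present for 8 members (10.8%), against 4.17% of the other detected genes and 1.87% of all windows, and AAGGTCA (ERR) for 8 members (10.8%), against 3.69% and 4.01%. No detected member had both the Nrf1 core and the YY1 core, and 19 had one of them.

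The remaining cores were counted in the same way. CCGGAAG (ETS) was present for 18 members (24.3%), against 23.5% of the other detected genes and 11.5% of all windows. GGGCGG (GC box) was present for 35 members (47.3%), against 70.0% and 46.2%, and TATAAA for 5 members (6.76%), against 8.26% and 12.5%. TGACGTCA (CRE) was present for 5 members (6.76%), against 3.82% and 2.27%. A match is a description of the letters and not of binding, and the cores can overlap.

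The 3 highest members with the Nrf1 core and the 2 highest with the YY1 core are shown 5′ to 3′ on the gene's strand, with the core or, in Atp5l and Uqcr11, its reverse complement (the match on the other strand) in capitals. They are Cox6a1 (chr5:115348909-115349208, minus strand), Atp5l (chr9:44920693-44920992, minus strand), Uqcr11 (chr10:80406772-80407071, minus strand), Atp5j (chr16:84834927-84835226, minus strand) and Atp5j2 (chr5:145191492-145191791, minus strand). In Cox6a1 the core and its reverse complement overlap in a palindrome that begins 162 bases before the start, while in Uqcr11 the core begins 5 bases before it.
Cox6a1: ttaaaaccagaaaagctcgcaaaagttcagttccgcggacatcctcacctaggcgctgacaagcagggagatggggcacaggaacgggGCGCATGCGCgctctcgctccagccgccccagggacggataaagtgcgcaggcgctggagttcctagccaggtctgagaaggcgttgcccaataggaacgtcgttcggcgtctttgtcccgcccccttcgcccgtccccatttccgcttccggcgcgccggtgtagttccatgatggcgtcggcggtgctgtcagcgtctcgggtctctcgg
Atp5l: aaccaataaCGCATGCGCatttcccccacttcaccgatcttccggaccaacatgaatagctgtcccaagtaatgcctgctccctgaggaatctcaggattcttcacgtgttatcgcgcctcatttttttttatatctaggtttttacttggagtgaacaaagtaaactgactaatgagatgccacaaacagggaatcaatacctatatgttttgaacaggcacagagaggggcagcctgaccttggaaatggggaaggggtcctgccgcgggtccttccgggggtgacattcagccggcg
Uqcr11: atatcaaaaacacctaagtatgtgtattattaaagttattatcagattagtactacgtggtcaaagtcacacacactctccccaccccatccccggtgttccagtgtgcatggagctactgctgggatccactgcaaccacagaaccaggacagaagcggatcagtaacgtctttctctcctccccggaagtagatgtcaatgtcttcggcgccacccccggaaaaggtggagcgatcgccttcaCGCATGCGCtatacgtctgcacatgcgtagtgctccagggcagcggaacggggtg
Atp5j: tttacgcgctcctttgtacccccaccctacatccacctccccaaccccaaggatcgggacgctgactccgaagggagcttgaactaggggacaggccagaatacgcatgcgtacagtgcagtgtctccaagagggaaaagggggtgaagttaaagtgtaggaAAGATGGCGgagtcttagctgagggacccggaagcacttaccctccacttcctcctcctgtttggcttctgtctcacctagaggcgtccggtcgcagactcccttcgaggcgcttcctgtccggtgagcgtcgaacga
Atp5j2: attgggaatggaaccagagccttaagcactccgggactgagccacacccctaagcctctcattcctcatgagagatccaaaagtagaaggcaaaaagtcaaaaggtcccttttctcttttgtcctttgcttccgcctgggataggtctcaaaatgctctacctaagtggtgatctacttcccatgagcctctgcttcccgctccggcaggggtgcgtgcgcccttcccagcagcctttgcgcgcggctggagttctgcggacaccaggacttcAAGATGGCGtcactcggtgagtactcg

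The YY1 core mostly lay just after the RefSeq start of its window. It began between 11 and 36 bases after the start in Ndufaf8, Ndufc1, Atp5j2, Ndufs7, Ndufa9, Ndufs6 and Ndufs4, and always read in the direction of transcription. In Atp5j it began 88 bases before the start of its window. RefSeq starts are not always the outer end of the gene model: Atp5j has another window at that end without the core, and the start used here lies 649 bases inside the model, as do those of Atp5j2, Ndufs7 and Atp5g2 by 521, 328 and 1305 bases. Nrf1 cores were more scattered, from 241 bases before the start in Atp5l to 31 after it in Uqcrc1. The factors themselves were expressed at 61.5, 84.6 and 69.8 TPM for Nrf1, 13.2, 11.3 and 10.7 TPM for Yy1, 16.4, 18.8 and 17.5 TPM for Gabpa, and 2.44, 3.46 and 3.17 TPM for Esrra. Ppargc1a, the coactivator known from brown fat and muscle, was at 0.02, 0.02 and 0.32 TPM and was the only one of 14 regulators not detected, while its relatives Ppargc1b and Pprc1 were at 6.88 ± 0.85 and 11.6 ± 1.1 TPM (SD, n = 3 each).

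Finally, the libraries were compared gene by gene. Rounded expected counts entered a chi-square test (2 degrees of freedom, TMM library sizes), adjusted by Benjamini-Hochberg over the 12997 genes whose mean count reached 10. All detected members but Cox6b2 reached it. The test called 67 of the 87 members (77%) at an adjusted p below 0.05, against 65.4% of all genes tested. Among genes whose mean count reached 500 it called 50 of 61 members (82.0%), against 87% of all such genes, so at like counts the members' share was near the background. Without replicate 3 it called 44 of 87 members, against 32.2% of all genes. With the trended negative binomial dispersion of edgeR in the variance, 0 of 87 members were called, also 0 at an unadjusted p below 0.05, against 1.18% of all genes tested. The dispersion itself came from these 3 libraries. Of the other assembly factors, 25 of 38 tested genes were called under sampling noise and 1 with the dispersion, Sdhaf1 (3.29, 5.23 and 18.2 TPM), and of the regulators 7 of 13 and 0.

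The ranges were narrow. The highest library stood a median of 1.24 times above the lowest in CPM (counts scaled by TMM library size), against 1.44 times over the 12901 tested genes with no library at 0 and 1.30 times over the 3753 of these whose mean count reached 500. Over 1.5-fold lay 14 of 87 members (16.1%), against 44.2% and 24.0%. The lowest adjusted p among members was that of Atp5a1, at 269, 496 and 387 TPM, with 1.8e-191 under sampling noise, and Sdha and Atp5b followed with 2.49e-68 and 2.7e-44. With the edgeR dispersion the adjusted p of each was 1.0.

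Which library was highest was uneven among members. Replicate 1 was highest for 52 of 87 members (59.8%), against 33.5% of all genes tested, and replicate 2 was lowest for 50 (57.5%), against 25.8%. The median log2 deviation from a gene's own mean was 0.09, -0.09 and -0.01 for members in replicates 1, 2 and 3, against 0.02, 0.01 and -0.05 for all genes tested, and the sign for replicate 3 among members turned positive with DESeq2 size factors, total counts and M4 counts. Only 6 members (6.9%) were highest in replicate 2, against 31.3% of all genes tested. They were Atp5a1, Atp5b, Uqcrc1, Cyc1, Sdhc and Ndufb2, named after their values were seen. Of the assembly factors 7 of 8 were highest in replicate 1 and 6 of 8 lowest in replicate 3, against 33.5% and 45.8% of all genes. In complex IV, replicate 3 was highest for 7 of 11 tested genes, against 35.2% of all genes, and replicate 1 for the other 4.

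**Figure D5:**
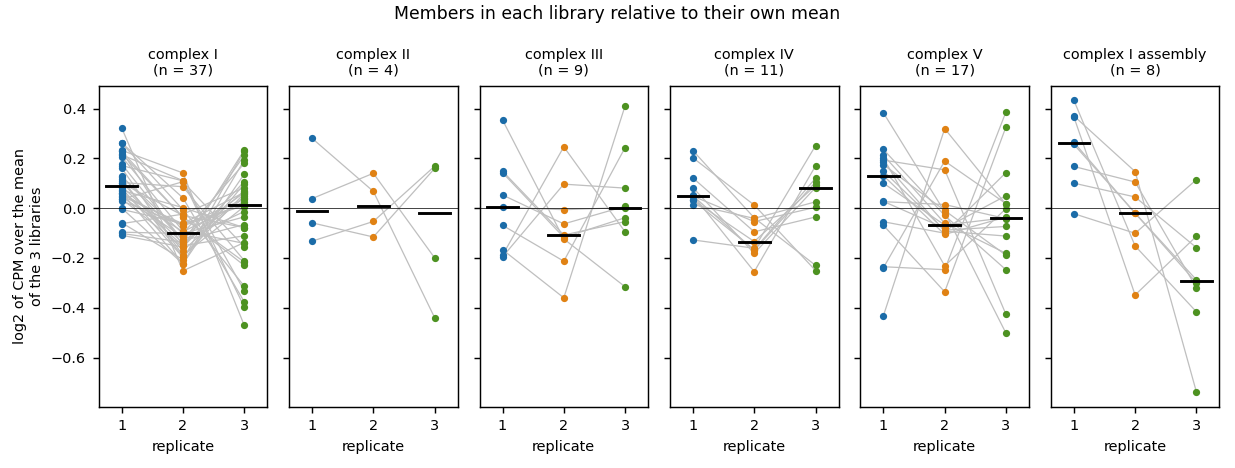
Log2 of the CPM of each tested member except Cycs over its own mean, in replicates 1, 2 and 3, by complex; grey lines join the values of 1 gene and black bars mark medians. Replicate 2 is lowest for 24 of 37 complex I genes and 9 of 11 complex IV genes, against 25.8% of all genes tested. Replicate 3 is lowest for 6 of 8 assembly factors, against 45.8% of all genes tested.

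Replicate 2, where most members were lowest, also had the lowest sums of the erythroid, plasma cell, B cell and myeloid markers. Single markers did not all follow these sums. Of the myeloid markers only Lyz2 was lowest in replicate 2, while Cd68 was lowest in replicate 3 and Csf1r and Itgam in replicate 1. Ms4a1 and Alas2 were lowest in replicate 3, and the other B cell, erythroid and plasma cell markers in replicate 2. The sum of the regulatory T cell list was highest in replicate 2. Of that list Cd3e, Cd4, Ikzf2 and Il2ra were highest there and Foxp3 was lowest there. Ctla4 and Tnfrsf18 were highest in replicates 3 and 1. Replicate 1 had the highest erythroid, B cell and myeloid sums. The libraries also differed in fragment length: length minus effective length had a median of 179, 171 and 165 bases in replicates 1, 2 and 3 over 5862 detected protein-coding genes of at least 2000 bases. The part of these differences in the members' values was not tested.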

How the data were processed

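PolyA RNA-seq was available for 3 libraries of 1 group. Per the file headers and the deposited readme, the main gene and transcript tables hold expected counts and TPM computed by the authors from transcriptome alignments on mm10 with gene models of release M21, along with effective lengths, posterior SDs and the percent of each gene's transcripts (deposited, and read as a check only). A second deposited transcript table holds estimated counts and TPM computed from the read files and an index, here summed by gene. A deposited M4 table holds whole-number counts per gene. The sources used here do not name the programs, though column names are those that RSEM and kallisto write. M4 counts were matched by gene ID for 22195 genes, 95 of them members, and scaled per coding base, on the inference that they cover coding sequence.

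The members, lists and tests were chosen with earlier results of these data known. Levels are the mean and SD of the TPM over libraries, with a pseudocount of 1 on the log2 scale. Genes named are, per complex, the 3 highest and 2 lowest detected members, members not detected, paralog sets, and members whose first and second quantification differ over 2 times, such as Cyc1 (111 against 54.5 TPM). Results for 1 member and 1 neighbouring gene are not reported here by name. Others were named after their values were seen. Expected counts were rounded for the chi-square test, checked on simulated counts. edgeR's quasi-likelihood test has no contrast in 1 group. Intervals and floors cover counting error only, since without molecular identifiers PCR copies count as separate reads. Tools were R 4.3.3 with edgeR 4.0.16 and DESeq2 1.42.0, and Python 3.11.15 with scipy 1.17.1. The alternatives tried were other normalizations, filters, pseudocounts and quantifications, and leaving out each library.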

Additional observations from a re-analysis of the deposited data

How the results depend on the processing

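No paired analysis was possible because the libraries form 1 group. Members detected stayed at 87 to 88 under a threshold of 5 TPM and in the second quantification. Absolute levels depended on the quantification. In the second table the share of fragments was 1.07%, the member level 7.00 and its lead over other protein-coding genes 5.50 (log2), with complexes I to V at 6.84, 6.69, 7.73, 7.74 and 7.86 and the assembly factors at 4.18. In M4 counts the share was 1.71%, and per coding base the member level was 8.29, the lead 5.52, complexes I to V at 7.97, 8.07, 8.62, 8.67 and 9.03 and the assembly factors at 5.40. The lead, 4.95 in the main table, was 5.18 with a pseudocount of 0.1, 4.23 with one of 5, and 3.11 against detected genes only, and the assembly factors were at 4.84 with a pseudocount of 5. With undetected members counted too, complex V stayed highest and the assembly factors lowest of these 6 groups in each of these settings. Levels of detected members alone were compared between complexes only in the main table. Complex II fell below complex I in the second table. Restricted paralogs took 0.167% in the second table and 0.125% in M4 counts. Atp5g1 took 34.1% and 26.9%, Atp5g2 took 18.2% in the second table, and Atp5g3 took 58.1% in M4 counts. The median share of the highest transcript was 83.5% in the second table, against 88.7% as the mean of library medians in the main one. Mitochondrial over nuclear levels in the second table were 3.63, 7.59, 14.7 and 23.6 for complexes I, III, IV and V. Members varying between libraries numbered 0 of 87 with negative binomial variance, against 1.18% of all genes tested. With DESeq2 size factors and total counts they numbered 69 and 67 of 87, against 65.4% and 65.3% of all genes. With count filters of 1 and 50 they numbered 66 of 89 and 67 of 86, against 45.8% and 74.1%. The second table and M4 counts gave 83 (94.3%) and 82 (93.2%) of 88, against 60.2% and 72.4%. At a mean count of at least 500, a filter chosen after seeing the data, 50 of 61 were called, against 87%. Without replicates 1, 2 and 3 in turn 49, 54 and 44 of 87 were called, against 51.7%, 53.6% and 32.2%. The shift of replicate 1 was 0.21 in the second table. The shift of replicate 3 turned positive with DESeq2 size factors (0.0069), total counts (0.0395) and M4 counts (0.0202), while those of replicates 1 and 2 kept their sign in all settings. The cause of these changes was not tested. Levels of single members moved by more than their SD for 74 of 91 members in the second table and for 83 of 91 in M4 counts. The lowest depth, 6667391 fragments, limits genes near 1 TPM most.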

Other observations

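Of the entries that the naming rule left out, Ndufb1-ps, annotated as a bidirectional-promoter lncRNA, was at 79.3, 92.0 and 89.0 TPM in replicates 1, 2 and 3, and Ndufb4c, a processed pseudogene, at 208, 214 and 198 TPM. The other 11 left-out entries, all processed pseudogenes, had at most 8.84 TPM in any library, and 3 of them were at 0 in all libraries. Among regulators, Tfam, which packages mitochondrial DNA and aids its transcription, was at 69.6, 59.5 and 84.5 TPM, and Slirp, which stabilises mitochondrial mRNA, at 65.4, 61.1 and 45.1 TPM.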
